A study of Mus musculus with 4 samples.

Results

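Transcripts of 7 genes that make, move and break down GABA were followed in sorted nuclei of excitatory and inhibitory neurons of the adult mouse brain. The genes were taken by symbol from a table of 55487 genes: Gad1 and Gad2 for synthesis, Slc32a1 for loading into vesicles, Slc6a11 and Slc6a13 for uptake from outside the cell, and Abat and Aldh5a1 for breakdown. Excitatory nuclei (2 libraries) and inhibitory nuclei (2 libraries) came from wild-type (WT) whole brain with the olfactory bulb removed, were sorted by fluorescence, and carry the same batch label. The age in weeks, the strain, the sex, the antibodies or reporters of the sort and the number of animals behind a library are not stated in the labels or files. RNA was total RNA of nuclei depleted of ribosomal RNA, so spliced and unspliced transcripts could both be read.

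GABA is the main inhibitory transmitter of the adult brain. It is made from glutamate by glutamate decarboxylase, an enzyme with an isoform from Gad1 that is spread through the cell and an isoform from Gad2 that is anchored at nerve terminals. The vesicular transporter encoded by Slc32a1 loads GABA, and also glycine, into synaptic vesicles, and transporters of the Slc6 family clear it after release. The mitochondrial GABA transaminase (Abat) then turns GABA into succinic semialdehyde, which succinic semialdehyde dehydrogenase (Aldh5a1) oxidises to succinate for the citric acid cycle.

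The genes of synthesis and vesicle loading, and the first gene of breakdown, were lower in excitatory than in inhibitory nuclei. Levels are in TPM, a measure scaled to the same total in each library that also corrects for transcript length, so that genes can be compared with each other. Excitatory levels were 13.1% of inhibitory levels for Slc32a1, 17.0% for Gad2, 19.2% for Gad1 and 31.9% for Abat. Of the 7 genes, 4 were called lower in excitatory nuclei, where 6.62% of the 26055 genes tested across the table were called in that direction. None of the 7 was called higher in excitatory nuclei, against 5.43% of genes tested, and 0 had an unadjusted p under 0.05 in that direction. A gene was called where the adjusted p of limma was under 0.05 (moderated test on log2(TPM + 1), Benjamini-Hochberg over all genes tested, two-sided), and a gene was tested where it reached 1 TPM in at least 2 libraries. Aldh5a1 and Slc6a11 were tested and not called, and Slc6a13 was under 1 TPM in every library and was not tested. In bulk nuclei, fewer nuclei of a type that carries a transcript and less transcript per nucleus cannot be told apart.

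Whether these calls held without 1 library depended on which genes were tested. With any 1 of excitatory replicate 1 or 2, or inhibitory replicate 1 or 2, left out and the same genes tested, limma, with 1 residual degree of freedom, called 0 genes in the whole table (smallest adjusted p between 0.0545 and 0.0664, with 5311 to 5812 genes at an unadjusted p under 0.05). The 4 called members then had adjusted p-values between 0.0545 and 0.0792. With the filter applied to the other 3 libraries instead, a setting added after seeing the data, all 4 were called in each of the 4 fits (limma adjusted p between 0.000574 and 0.00552). In both settings the log2 fold change without 1 library was between -2.47 and -2.24 for Gad1, -2.60 and -2.38 for Gad2, -3.10 and -2.44 for Slc32a1 and -1.72 and -1.51 for Abat. Nothing in the labels states that replicates are separate animals, and the p-values cover only the spread among these libraries, which may be technical.

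**Figure D1:**
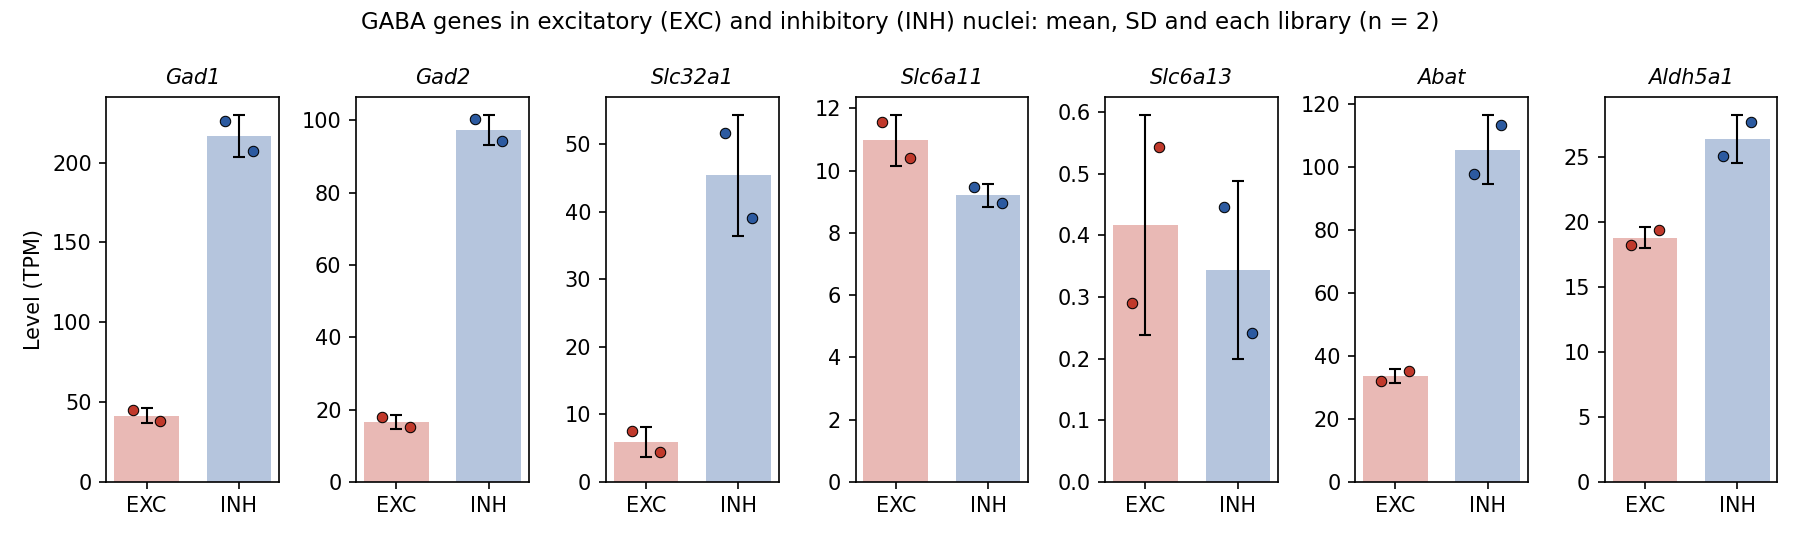
Level in TPM of each of the 7 genes in excitatory (EXC, red) and inhibitory (INH, blue) nuclei, with a scale of its own for each gene; bars are means, lines are SD and points are the 2 libraries of a group. Gad1, Gad2, Slc32a1 and Abat stand well below their inhibitory bars in both excitatory libraries, Aldh5a1 differs less (18.8 against 26.4 TPM), Slc6a11 stands a little higher (10.97 against 9.20 TPM), and Slc6a13 stays under 1 TPM.

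Gad1, the more abundant of the decarboxylase genes, stood at 45.0 and 38.1 TPM in excitatory libraries, against 226 and 207 TPM in inhibitory libraries. The groups lay far apart, and the highest excitatory library remained well under the lowest inhibitory one. The log2 fold change, excitatory minus inhibitory, was -2.36 ± 0.12 (SE, limma adjusted p = 0.00149). Gad2 stood at 17.9 and 15.2 TPM in excitatory libraries, against 100.3 and 94.3 TPM in inhibitory libraries, again with no overlap. Its log2 fold change was -2.49 ± 0.13 (limma adjusted p = 0.00152).

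Both decarboxylase genes kept nearly the same proportion in every library. Gad1 made up 71.6% and 71.5% of the summed Gad1 and Gad2 level in excitatory libraries, against 69.3% and 68.7% in inhibitory libraries. The Gad1 to Gad2 ratio of TPM was 2.52 and 2.51 in excitatory libraries and 2.25 and 2.197 in inhibitory libraries. The groups did not overlap, but the difference was small, 0.13 on the log2 scale with 1 TPM added to each level. It was 0.17 with 0.1 TPM added. For both, p was 0.333 by exact permutation of the libraries (two-sided), the smallest value that 2 against 2 allow.

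Slc32a1, the vesicular transporter gene, had the lowest log2 fold change of the members. It stood at 7.48 and 4.38 TPM in excitatory libraries, against 51.7 and 39.0 TPM in inhibitory libraries. The log2 fold change was -2.77 ± 0.27 (limma adjusted p = 0.00402), and 43 of the 26055 genes tested had a lower one, compared with 94 below Gad2 and 132 below Gad1. The libraries of a group differed more for Slc32a1 than for most genes: the excitatory libraries were 0.66 apart on the log2 scale and the inhibitory libraries 0.40, where the median gap over all tested genes was 0.22 in excitatory and 0.21 in inhibitory libraries. Relative to Gad1, Slc32a1 had a TPM ratio of 0.166 and 0.115 in excitatory libraries and of 0.229 and 0.188 in inhibitory libraries. This ratio was lower in both excitatory libraries, by 0.41 on the log2 scale with 1 TPM added to each level. With 0.1 TPM added, the difference was -0.57, so its size depended on the amount added. Both gave p = 0.333 in the exact permutation test, again the smallest possible. With 1 TPM added, the difference also depended on single libraries. It was -0.62 without excitatory replicate 1, -0.20 without excitatory replicate 2, -0.27 without inhibitory replicate 1 and -0.55 without inhibitory replicate 2.

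The Gad1, Gad2 and Slc32a1 genes lie on mouse chromosome 2, on the plus strand and far apart. In the GENCODE M21 annotation of mm10, Gad1 spans chr2:70553072-70602014, Gad2 spans chr2:22622205-22693874 and Slc32a1 spans chr2:158610767-158615748. The genes differ in build. Exons make up 56.1% of the 4.98 kb of Slc32a1, 15.6% of the 48.9 kb of Gad1 and 8.20% of the 71.7 kb of Gad2. Each window printed next runs from 250 bases before to 50 bases after a RefSeq start site (GRCm38.p6, the assembly of mm10), 5′ to 3′, and is shown because these 3 genes had the lowest log2 fold changes of the members. Capitals mark matches, on either strand, to GCGNGGGCG, the core recognised by EGR1, the factor this study is about, or to GGGCGG, the GC box of Sp factors.
Gad1, chr2:70561879-70562178, plus strand: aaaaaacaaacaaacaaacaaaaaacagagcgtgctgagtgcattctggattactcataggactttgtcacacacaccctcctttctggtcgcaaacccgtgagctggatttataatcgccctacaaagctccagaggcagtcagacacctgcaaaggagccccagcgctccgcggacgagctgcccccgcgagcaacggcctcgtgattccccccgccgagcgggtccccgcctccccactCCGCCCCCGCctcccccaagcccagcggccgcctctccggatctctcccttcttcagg
Gad2, chr2:22622077-22622376, plus strand: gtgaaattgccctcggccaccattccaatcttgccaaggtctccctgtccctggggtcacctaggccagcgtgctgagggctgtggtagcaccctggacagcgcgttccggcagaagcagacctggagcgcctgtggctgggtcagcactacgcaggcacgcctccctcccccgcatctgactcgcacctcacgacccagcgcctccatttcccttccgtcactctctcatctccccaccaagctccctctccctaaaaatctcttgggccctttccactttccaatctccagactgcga
Slc32a1, chr2:158610508-158610807, plus strand: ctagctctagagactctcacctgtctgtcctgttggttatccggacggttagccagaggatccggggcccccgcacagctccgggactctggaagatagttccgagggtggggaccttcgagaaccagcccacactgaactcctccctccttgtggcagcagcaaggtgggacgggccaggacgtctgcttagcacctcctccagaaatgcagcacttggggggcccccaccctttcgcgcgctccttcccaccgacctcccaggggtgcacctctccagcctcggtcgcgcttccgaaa

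The Gad1 window held the letters GCGNGGGCG once, on the minus strand at bases 244 to 252, across the start site at base 251, and a GC box at bases 243 to 248 overlapped it. The Gad2 and Slc32a1 windows held neither. GCGNGGGCG was present in 5.55% of 32851 windows of the same length in the RefSeq table, and GGGCGG in 35.7%. TAATTA, a core of homeodomain factors, was searched as well. It was present in 5.29% of windows and in none of the 8 windows of the 6 members found in the table. A match of letters is no evidence of binding, and the absence of a match says only that the letters are not in that window.

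Transcripts annotated within or across these genes were also listed. Mir3967 is a microRNA gene of 68 bases that lies, in the same orientation, within a Gad2 intron. It was listed at 0 in both excitatory libraries, against 20.7 and 15.3 TPM in inhibitory libraries. Mir3967 was called lower in excitatory nuclei (log2 fold change -4.23, limma adjusted p = 0.00204). It passed the filter through the inhibitory libraries alone, so its direction follows from that filter. Another predicted microRNA in a Gad2 intron, Gm23636, stood at 2.21 and 0 TPM in excitatory libraries, against 4.65 and 10.4 TPM in inhibitory libraries, and was not called (limma adjusted p = 0.0810). Whether fragments of unspliced Gad2 were counted for them was not tested. The antisense genes Gad1os (0.348 and 0.306 against 1.13 and 2.65 TPM) and Gm14205 on Slc32a1 (0.462 and 0 against 3.43 and 1.70 TPM) were lower in excitatory libraries. Neither was called (limma adjusted p = 0.122 and 0.0591). Both reached 1 TPM in inhibitory libraries alone, so their direction follows from the filter. Within exons of Gad1 and Slc32a1 lie 651 and 722 of their bases. Neither labels nor files state whether the authors' counting used strand, so the values of overlapping genes are uncertain.

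Neither uptake gene among the members was called. Slc6a11, which encodes a GABA transporter found mainly on astrocytes, stood at 11.5 and 10.4 TPM in excitatory libraries, against 9.46 and 8.95 TPM in inhibitory libraries. The groups did not overlap, by a margin smaller than 1 TPM. The log2 fold change was 0.23 ± 0.20 (limma adjusted p = 0.516), with a 95% interval from -0.26 to 0.71. Slc6a13, a GABA transporter known from the meninges and blood vessels of the brain and from liver and kidney, stood at 0.291 and 0.543 TPM in excitatory libraries, against 0.446 and 0.241 TPM in inhibitory libraries. These values overlapped. Levels this low show only that little of the transcript was read.

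Markers of the cells in which these transporters are known to be made were read beside them. All 12 astrocyte markers listed were tested. All 12 stood higher on average in excitatory nuclei, with log2 fold changes from 0.16 to 2.16 (median 0.36, against -0.07 over all genes tested). Of these, 1 was called higher, Slc1a2, which neurons also transcribe, where 5.43% of all genes tested were called in that direction. The summed level of the list, most of it Slc1a2, was 457 and 513 TPM in excitatory libraries, against 157 and 146 TPM in inhibitory libraries, and none of its members was at 0 in all libraries. Besides Slc1a2, the markers with the smallest p were Fgfr3 (11.6 ± 0.568 against 6.42 ± 0.984 TPM, SD), Slc1a3 (27.4 ± 3.47 against 19.2 ± 1.60 TPM) and Aldh1l1 (5.21 ± 0.279 against 2.64 ± 1.49 TPM). The log2 fold change of Slc6a11 lay within the range of this list. It also lay within those of the oligodendrocyte lineage markers (0.08 to 0.90) and the microglia markers (-0.42 to 0.25). The ranges of the inhibitory (-3.16 to 1.12), excitatory (-1.91 to 3.46) and fibroblast markers (-0.87 to 1.67) held it too. That of the endothelial and mural markers (-0.88 to 0.15) did not. Lying within a range thus does not set glial markers apart from neuronal ones. The part of glial RNA in the Slc6a11 level was not tested. Of 12 fibroblast markers of meninges and vessels, 7 were tested, with Dcn called higher in excitatory nuclei (9.08 ± 1.62 against 2.16 ± 0.0167 TPM) and 0 called lower. Over all genes tested, 5.43% were called higher and 6.62% lower. Of the others with the smallest p, Lum had a log2 fold change of -0.87, Aox3 of -0.66 and Slc6a20a of -0.47, and none was called. Lum and Aox3 reached 1 TPM in inhibitory libraries alone, so the direction of these 2 follows from the filter. The fibroblast list summed to 19.0 and 16.9 TPM in excitatory libraries and to 17.3 and 13.9 TPM in inhibitory libraries. A large part of the excitatory sums was Dcn, at 10.2 and 7.94 TPM, against 2.17 and 2.15 TPM in inhibitory libraries. No other tested marker of the list had a log2 fold change above 0. The collagen genes Col1a1, Col1a2 and Col3a1 were not tested for low values. Of 10 endothelial and mural markers, 4 were tested and 0 were called by limma, against the same shares of all genes tested. At an unadjusted p under 0.05 (limma) were 0 higher and 1 lower in excitatory nuclei, where 7256 of all 26055 genes tested were, in either direction. The 4 tested were Itm2a (-0.88), Vtn (-0.54), Acta2 (-0.18) and Rgs5 (0.15), given as log2 fold changes.

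Slc6a11 spans chr6:114131241-114249952 on the plus strand. Slc6a13 spans chr6:121300227-121337733 and has another transporter of the family next to it, Slc6a12, at a distance of 5.34 kb. Slc6a12, known for carrying betaine as well as GABA, was not tested, with means of 0.165 ± 0.233 TPM in excitatory and 2.36 ± 1.99 TPM in inhibitory libraries. The window at the Slc6a11 start site is printed for contrast with those of the decarboxylases, since this gene was the tested member that was not lower in excitatory nuclei.
Slc6a11, chr6:114130991-114131290, plus strand: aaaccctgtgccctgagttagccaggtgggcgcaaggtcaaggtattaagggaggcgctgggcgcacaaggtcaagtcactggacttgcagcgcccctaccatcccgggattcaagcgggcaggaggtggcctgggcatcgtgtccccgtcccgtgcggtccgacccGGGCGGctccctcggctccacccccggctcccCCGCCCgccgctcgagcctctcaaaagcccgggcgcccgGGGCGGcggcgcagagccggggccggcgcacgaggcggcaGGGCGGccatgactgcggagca

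This window had a GC content of 72.3%, against 60% for Gad1, 61.3% for Gad2, 63.3% for Slc32a1 and a median of 52.7% over all windows. It held GGGCGG 4 times, marked in capitals, and GCGNGGGCG at no position. Across the 6 members with a window, GGGCGG was found for 3 and GCGNGGGCG for 1. Of 27025 genes with windows of this length, 10324 had GGGCGG and 1695 had GCGNGGGCG. Slc6a13, 1 of the 3 members with GGGCGG, had more than 1 window searched.

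Of the genes of breakdown, Abat was called and Aldh5a1 was not. Abat stood at 32.2 and 35.2 TPM in excitatory libraries, against 97.8 and 113 TPM in inhibitory libraries. The groups lay far apart, with a log2 fold change of -1.62 ± 0.12 (limma adjusted p = 0.00250). Aldh5a1, which acts on the product of the Abat enzyme, stood at 18.2 and 19.4 TPM in excitatory libraries, against 25.1 and 27.7 TPM in inhibitory libraries. It was lower in both excitatory libraries, but the log2 fold change of -0.47 ± 0.15 was not called (limma adjusted p = 0.0964). Its 95% interval, not adjusted for the number of genes, ran from -0.82 to -0.11. At 71.2% of the inhibitory level, the excitatory level of Aldh5a1 was closer to equality than that of Abat.

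The Abat to Aldh5a1 ratio of TPM was 1.77 and 1.82 in excitatory libraries, against 3.90 and 4.09 in inhibitory libraries. This ratio, picked after the values were seen, was lower in both excitatory libraries, by 1.15 on the log2 scale with 1 TPM added to each level. The exact permutation test gave p = 0.333, its minimum. Abat spans chr16:8513429-8621568 on the plus strand and overlaps no other annotated gene. Aldh5a1 spans chr13:24907579-24937661 on the minus strand. It is overlapped on the other strand by the noncoding genes 4932702P03Rik (8.08 TPM in excitatory and 11.6 TPM in inhibitory nuclei on average) and 9330162012Rik (9.57 and 12.1 TPM), and 4417 bases of the first of these lie within Aldh5a1 exons. If strand was not used in counting, the value of Aldh5a1 may hold reads of these genes.

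**Figure D2:**
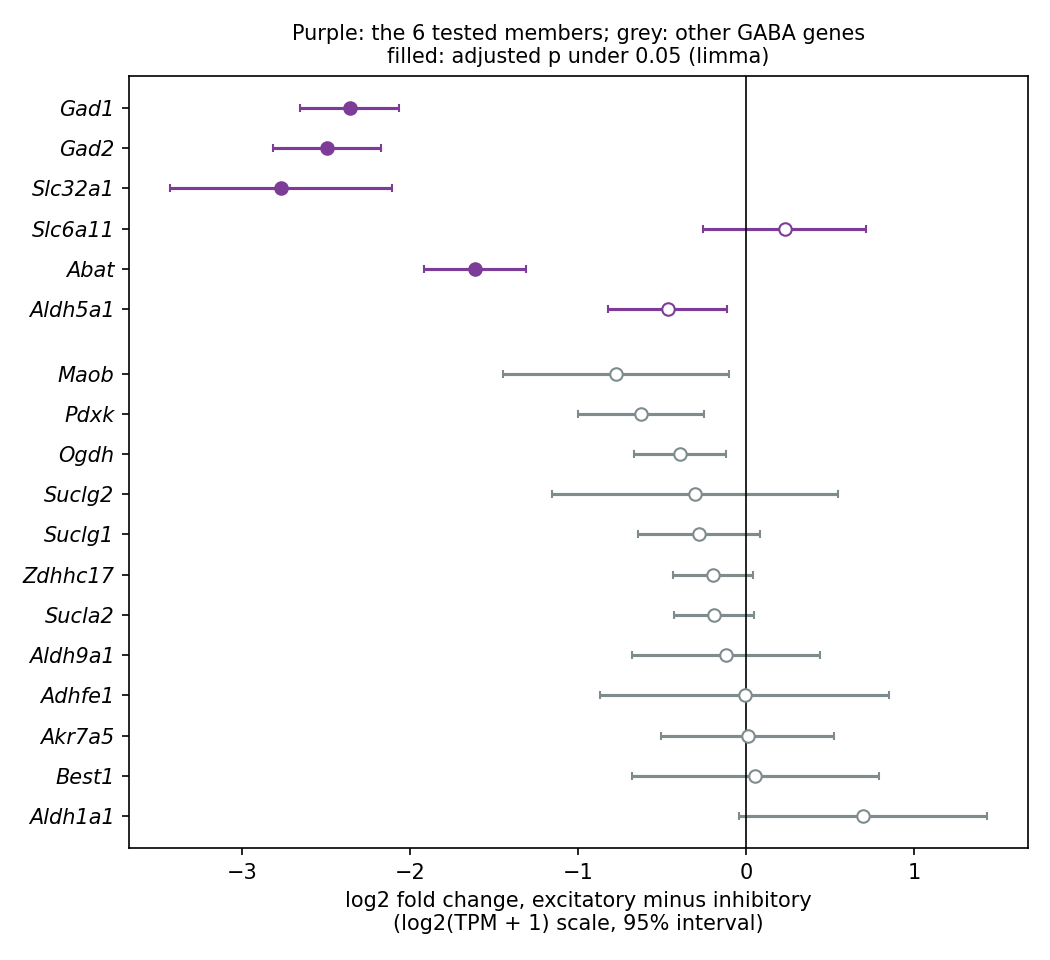
Log2 fold change, excitatory minus inhibitory, with 95% intervals from limma, for the 6 tested members (purple) and the 12 tested genes of the list of other GABA genes (grey); filled points have an adjusted p under 0.05. Gad1, Gad2, Slc32a1 and Abat stand apart on the left between -2.77 and -1.62, and the other points lie between -0.78 and 0.69.

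Groups were ordered alike at the top and differently below it. In excitatory nuclei the order of mean levels was Gad1 (41.6 TPM), Abat (33.7), Aldh5a1 (18.8), Gad2 (16.5), Slc6a11 (10.97), Slc32a1 (5.93) and Slc6a13 (0.417), and no neighbours in it overlapped between libraries. In inhibitory nuclei it was Gad1 (217 TPM), Abat (105.6), Gad2 (97.3), Slc32a1 (45.4), Aldh5a1 (26.4), Slc6a11 (9.20) and Slc6a13 (0.344), where the libraries of Abat and Gad2 overlapped and no other neighbours did. Slc32a1 thus stood below Slc6a11 in excitatory nuclei and above it in inhibitory nuclei. Among all genes tested, Gad1 exceeded 79.9% by mean level in excitatory nuclei, against 98.6% in inhibitory nuclei. Slc32a1 exceeded 34.7% in excitatory nuclei, against 81.4% in inhibitory nuclei. Of the 7 genes, 5 were lower in both excitatory libraries than in either inhibitory one, where 33.3% of tested genes were, and 1 was higher, where 23.0% were.

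**Figure D3:**
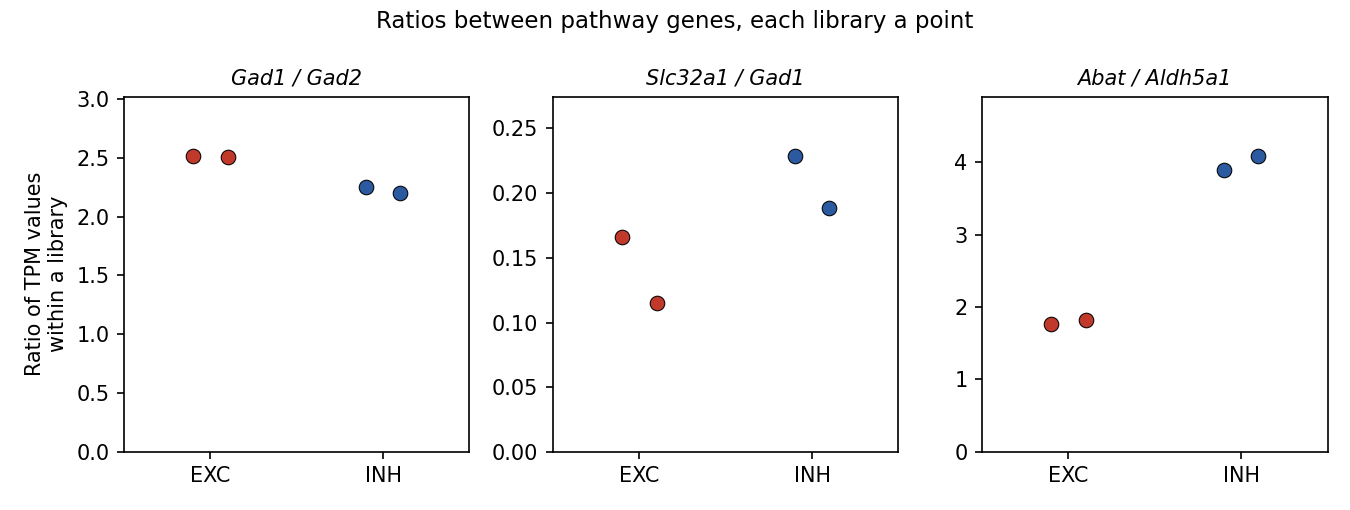
Ratio of TPM values between pairs of genes within each library, in excitatory (EXC, red) and inhibitory (INH, blue) nuclei, each point a library and each axis from 0. Gad1 to Gad2 stays between 2.197 and 2.52 in all libraries, while Slc32a1 to Gad1 and Abat to Aldh5a1 are lower in both excitatory libraries.

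The excitatory level of the decarboxylases was not near 0, and markers of inhibitory neurons were read beside it. Of 16 markers listed, 15 genes were tested and 13 were called lower in excitatory nuclei, where 6.62% of all genes tested were. Lamp5, also a gene of cortical projection neurons, was called higher, where 5.43% of all genes tested were. Pvalb, at 52.7% of the inhibitory level, was not called (limma adjusted p = 0.0861). The 4 with the smallest p were Dlx6os1 (7.34 ± 0.695 against 73.5 ± 1.28 TPM), Erbb4 (8.66 ± 0.911 against 78.5 ± 5.99 TPM), Nxph1 (13.4 ± 2.06 against 100.7 ± 6.20 TPM) and Adarb2 (41.7 ± 3.61 against 217 ± 14.3 TPM), with SD over n = 2 libraries each. Over the tested markers, the excitatory level was between 4.49% and 221% of the inhibitory level, with a median of 13.3%, and 1 of them, Dlx5, reached 1 TPM in inhibitory libraries alone. The values of Gad1 (19.2%), Gad2 (17.0%) and Slc32a1 (13.1%) lay within this range. So did those of all other tested members, so lying within it sets no member apart. The list summed to 225 and 184 TPM in excitatory libraries, against 885 and 841 TPM in inhibitory libraries. The part of inhibitory nuclei among the sorted excitatory nuclei in these levels was not tested.

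Excitatory markers were read in the same way. Of 11, 9 were called higher in excitatory nuclei, where 5.43% of all genes tested were. Slc17a8 was not called. Slc17a6, a vesicular glutamate transporter of thalamus and brainstem, was called lower (21.3 ± 1.50 against 83.2 ± 6.74 TPM), where 6.62% were. Among the markers higher in excitatory nuclei, Slc17a7, Slc30a3 and Fezf2 had the smallest p. The 11 markers summed to 1064 and 1166 TPM in excitatory libraries, against 343 and 369 TPM in inhibitory libraries. The part of glutamatergic nuclei among the sorted inhibitory nuclei in the levels of Gad1, Gad2 and Slc32a1 was not tested.

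**Figure D4:**
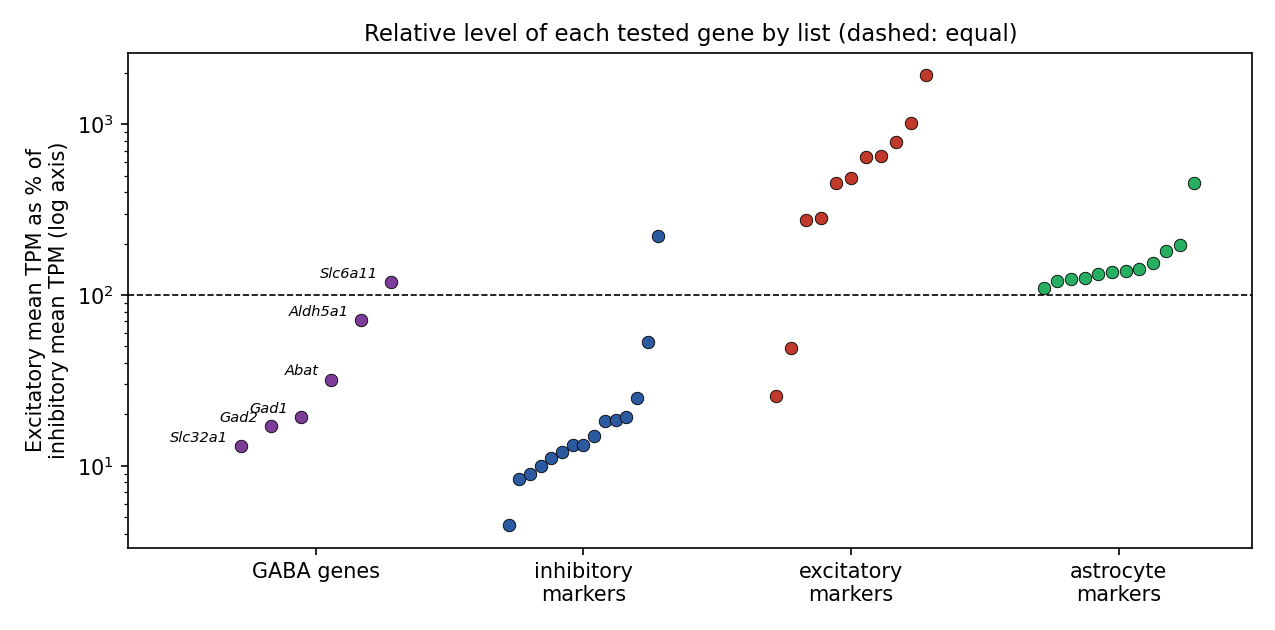
Mean TPM in excitatory nuclei as a percent of the mean in inhibitory nuclei, on a log axis, for each tested gene of 4 lists; the dashed line marks equal levels. Slc32a1, Gad2 and Gad1 lie at 13.1% to 19.2%. The inhibitory markers run from 4.49% to 221%, with a median of 13.3%. Abat (31.9%) and Aldh5a1 (71.2%) lie nearer the line. Slc6a11 (119%) lies above the line, as do 9 of the 11 excitatory markers and all astrocyte markers (lowest 110%). The oligodendrocyte lineage markers, which are not drawn, lie above it too (lowest 103%).

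Other genes around the pathway were read in the same fit. The list of further genes of GABA synthesis, uptake and breakdown had 14 members, of which 12 were tested. Of these, limma called 0, where 5.43% of all genes tested were called higher in excitatory nuclei and 6.62% lower. At an unadjusted p under 0.05 (limma) were 0 higher and 3 lower, where 7256 of all 26055 genes tested were, in either direction. The median log2 fold change of the 12 was -0.19, against -0.07 over all genes tested. Pdxk, the kinase that makes pyridoxal phosphate, the cofactor of both decarboxylases and of GABA transaminase, had 27.03 ± 0.493 TPM in excitatory nuclei and 42.5 ± 7.12 TPM in inhibitory nuclei (limma adjusted p = 0.0517). Ogdh, a subunit of the oxoglutarate dehydrogenase step that the GABA shunt bypasses, had a log2 fold change of -0.40 (limma adjusted p = 0.0759), and Maob, an amine oxidase of the putrescine route to GABA, of -0.78 (limma adjusted p = 0.132). Aldh1a1, an aldehyde dehydrogenase of that route, had a log2 fold change of 0.69 and was not called (limma adjusted p = 0.201).

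Of 12 genes that supply glutamate and glutamine, 11 were tested, with a median log2 fold change of -0.08. In excitatory nuclei 1 was called higher and 2 lower, where 5.43% and 6.62% of all genes tested were. Slc1a2, a glutamate transporter, had 394 ± 49.98 TPM in excitatory nuclei and 86.9 ± 2.68 TPM in inhibitory nuclei. Slc38a1, a glutamine transporter of neurons, had 78.6 ± 5.47 TPM in excitatory nuclei and 120.7 ± 1.38 TPM in inhibitory nuclei, a log2 fold change of -0.61 (limma adjusted p = 0.0173). Glud1, glutamate dehydrogenase, had 51.8 ± 7.99 TPM in excitatory nuclei and 81.1 ± 3.20 TPM in inhibitory nuclei (log2 fold change -0.64, limma adjusted p = 0.0342). Slc38a3, another glutamine transporter, had a log2 fold change of 0.84 and was not called (limma adjusted p = 0.0721).

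The genes most like each member were found by the root mean square difference between centred log2(TPM + 1) profiles over the 4 libraries, among 12111 other genes with a mean of at least 5 TPM. With 4 libraries, this is a description of the profiles only. The nearest to Gad1 were Rarb, the retinoic acid receptor beta gene (difference 0.012), the enkephalin precursor gene Penk (0.050) and Gad2 (0.068). Rarb stood at 17.3 and 14.6 TPM in excitatory libraries, against 91.2 and 82.3 TPM in inhibitory libraries. For Gad2 the same genes came up, Rarb (0.061), Gad1 (0.068) and Penk (0.077). Rarb and Penk are both abundant in striatum.

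Slc32a1 was nearest to Tac1, a tachykinin precursor gene (0.10), Slc6a5, the glycine transporter of glycinergic terminals (0.10), and Vip, a peptide gene of a class of interneurons (0.10). Abat was nearest to Zcchc12 (0.034), Homer3, a postsynaptic scaffold gene (0.048), and Kcnh2, a potassium channel gene (0.050). Aldh5a1 was nearest to Tro (0.0088), Haghl (0.012) and Fam13b (0.013), and Slc6a11 to Mrpl48, a mitochondrial ribosome gene (0.0049), the myelin gene Mog (0.013) and Bnip2 (0.018). The last 6 genes differed little between the groups, with log2 fold changes from -0.49 to 0.27.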

How the data were processed

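RNA of 2 excitatory and 2 inhibitory libraries was analysed. The authors deposited 1 table of TPM values, with 1 column per library and no pooling, matched to samples by the column names in the sample descriptions. The submitters' processing notes name, on mm10, StringTie 2.2.1 and HISAT2 2.2.1 as well as Bowtie2 2.3.5 and fastp 0.23.4. Their roles, the annotation used and the handling of strand were not given in the sources used here. Sequencing depth cannot be read from TPM, and no counting interval was computed.

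From these values, log2(TPM + 1) was compared, excitatory minus inhibitory, with limma 3.58.1 in R 4.3.3 (variance trend, 2 residual degrees of freedom) for 26055 genes that reached 1 TPM in 2 or more libraries. Adjustment was over all of these. Ratios within a library were compared by an exact permutation test, on the log2 scale with 1 TPM added to each level. Printed TPM ratios have nothing added. Gene positions came from GENCODE M21, which matched 25955 of the tested genes, and start-site windows from RefSeq tables (GRCm38.p6). Figures used matplotlib 3.10.9.

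The members and the other gene lists were chosen with earlier results of these data known. The text names all members, the 4 tested genes with the smallest p of each list (called ones too for the pathway lists), and the 3 nearest profiles of each member among genes whose symbol is no predicted gene, clone or mitochondrial name. Others named were chosen after their values were seen. Some genes of the lists are not reported here and were left out of the lists' counts and sums. Alternatives were other pseudocounts, filters, scalings and priors, a replicate block, and each library left out.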

Additional observations from a re-analysis of the deposited data

How the results depend on the processing

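Across 16 alternatives, no tested member changed direction. Gad1 (-2.38 to -2.28), Gad2 (-2.55 to -2.42), Slc32a1 (-2.95 to -2.69) and Abat (-1.64 to -1.54) stayed called in the 8 that used all libraries, which were pseudocounts of 0.1 and 0.5, no filter, a filter of at least 5 TPM, median ratio scaling, quantile normalization, no variance trend and the replicate block. Slc6a11 (0.16 to 0.32) and Aldh5a1 (-0.54 to -0.40) were not called in any of the 16. With 1 library left out and the same genes, limma called 0 genes of the table and 0 members, with 5311 to 5812 genes at an unadjusted p under 0.05. With the filter applied to the other 3 libraries, a setting added after seeing the data, genes called higher in excitatory nuclei numbered 813 and 604 without excitatory replicate 1 and 2 and 893 and 1039 without inhibitory replicate 1 and 2, and genes called lower 1064, 1085, 871 and 800 in the same order, against 1414 and 1725 with all libraries, and the same 4 members were called (adjusted p between 0.000574 and 0.00552). Of the other settings, no filter moved the table's counts most, to 666 higher and 740 lower. The Gad1 to Gad2 and Slc32a1 to Gad1 ratio differences kept their sign in every setting run for them, and quantile normalization moved the Slc32a1 to Gad1 difference to -0.32 (exact permutation p = 0.667). Without the filter, Slc6a13 had a log2 fold change of 0.08 ± 0.19 (limma adjusted p = 0.852).

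Whether replicate numbers pair the samples is not known, since no label says what a number marks. Differences between replicates 1 and 2 correlated across genes at r = 0.0957 between the groups, which cannot decide it. With the replicate number as a block, 1946 genes were called higher and 2382 lower in excitatory nuclei, against 1414 and 1725 without it. That fit had 1 residual degree of freedom and called the same 4 members.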

Other observations

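Glycine shares the vesicular transporter encoded by Slc32a1, and genes of glycine transmission were lower in excitatory nuclei for 5 of 7, with 2 not called and 0 higher (0 also at an unadjusted p under 0.05), where 6.62% of all tested genes were called lower. The median log2 fold change of the list was -1.17. Slc6a5, the glycine transporter of glycinergic terminals, averaged 0.873 ± 0.441 TPM in excitatory nuclei and 10.3 ± 1.73 TPM in inhibitory nuclei (SD, n = 2 each), and Glra1, an alpha subunit of the glycine receptor, averaged 0.940 ± 0.179 TPM in excitatory nuclei and 10.4 ± 1.25 TPM in inhibitory nuclei. Both reached 1 TPM in only 1 excitatory library and passed the filter through the inhibitory libraries, so the count of the list partly follows from that filter. Glra2 (-1.18) and the gephyrin scaffold gene Gphn (-0.44) were called lower as well, on the log2 scale. Slc6a9, a glycine transporter found mainly on glia, had 19.4 ± 5.81 TPM in excitatory nuclei and 13.0 ± 0.612 TPM in inhibitory nuclei, a log2 fold change of 0.51, and was not called (limma adjusted p = 0.223).

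Of 10 oligodendrocyte lineage markers, limma called 0, where 5.43% of all genes tested were called higher in excitatory nuclei and 6.62% lower. At an unadjusted p under 0.05 (limma) were 1 higher and 0 lower, where 7256 of all 26055 genes tested were, in either direction. All 10 had a log2 fold change above 0, with a median of 0.31, against -0.07 over all genes tested. The 4 with the smallest p were Cspg4 (0.90), Mobp (0.52), Olig2 (0.57) and Mbp (0.35). Cspg4 reached 1 TPM in only 1 inhibitory library and passed the filter through the excitatory libraries. Of 7 microglia markers, limma called 0 (0 also at an unadjusted p under 0.05, in either direction), against the same shares of all genes tested. The 4 with the smallest p had log2 fold changes of -0.31 for P2ry12, -0.42 for Csf1r, -0.26 for Cx3cr1 and 0.25 for Tmem119. The other markers, C1qa, C1qb and Aif1, lay between 0.02 and 0.11, and the median of the 7 was 0.02.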
